A study of Mus musculus with 69 samples.

Results

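The 4 chemokine genes Cxcl1, Cxcl2, Ccl2 and Ccl7 were followed in the mouse heart after cyanide exposure. They were chosen by name as the ligands known for drawing neutrophils (Cxcl1, Cxcl2) and monocytes (Ccl2, Ccl7) out of the blood. They are 4 of the 17097 genes that probe sets with a single gene symbol represent on the array, and each had 1 probe set of the 45141 (1419209_PM_at for Cxcl1, 1449984_PM_at for Cxcl2, 1420380_PM_at for Ccl2 and 1421228_PM_at for Ccl7). All the hearts came from non-anesthetized adult male CD-1 mice of 20 to 35 g. In the inhalation arm, mice breathed hydrogen cyanide (HCN, 327 ppm, nose-only) or air, and hearts were harvested at 1, 2, 4 and 24 h. Potassium cyanide (KCN) was given as a subcutaneous injection of 8.0 mg/kg, with an equal volume of saline as the control, and hearts were harvested at 1, 2, 4, 8 and 24 h. The 69 arrays fell into 18 groups of 4 arrays each, except KCN 4 h, saline 2 h and saline 4 h with 3 each. The labels call the arrays of a group biological replicates, and each was counted as a separate mouse. What was asked of each gene was whether its signal differed between cyanide and control hearts at each time, and whether this difference changed over time or between the routes.

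Chemokines are small secreted proteins that bind membrane receptors on leukocytes and direct them along a gradient. Cxcl1 and Cxcl2 bind Cxcr2, the main chemotactic receptor of neutrophils. Ccl2 binds Ccr2, which lets monocytes leave the bone marrow and enter tissue, and Ccl7 binds Ccr2 and also Ccr1. All of them can be induced within hours by NF-kB, a transcription factor that is held in the cytoplasm until a stress or cytokine signal frees it. In the heart, fibroblasts, endothelial cells, macrophages and cardiomyocytes are known sources. In whole hearts, fewer cells of a type and less RNA per cell cannot be told apart.

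Cxcl1 and Cxcl2 lie side by side in the genome, and so do Ccl2 and Ccl7, with 0 protein-coding genes between the members of each pair in the RefSeq annotation. RefSeq promoter sequences (assembly GRCm38.p6) were at hand for 2 of the 4 genes, Cxcl1 and Cxcl2. Their last 150 bases before the gene start, on the plus strand, are shown because both contain the same NF-kB-type motif, printed in capitals. They span chr5:90891095-90891244 and chr5:90903749-90903898.
Cxcl1: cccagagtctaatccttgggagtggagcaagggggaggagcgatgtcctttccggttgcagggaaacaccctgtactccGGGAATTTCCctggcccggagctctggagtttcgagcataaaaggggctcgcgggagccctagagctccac
Cxcl2: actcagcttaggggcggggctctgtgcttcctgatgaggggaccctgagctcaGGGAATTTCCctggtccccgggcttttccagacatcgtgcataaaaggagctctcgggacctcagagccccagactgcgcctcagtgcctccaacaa
The motif GGGAATTTCC was taken after the letters were read, as the first 10 bases of gggaatttccctgg, the longest run the pair share (14 bases). It was searched on both strands (reverse complement GGAAATTCCC) in the 250 bases before each gene start. It begins 71 bases before the start in Cxcl1 and 97 bases before it in Cxcl2. It was found in 28 of 32851 promoters, or 0.0852%. A further shared run, gcataaaagg, of 10 bases, lies nearer the start. A match of letters describes the sequence and was not tested as a binding site.

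Signals are log2 values as deposited. The 95th percentile of 83 olfactory and vomeronasal receptor probe sets, genes not known to be active in the heart, was taken on each array as the background level. It lay between 3.05 and 3.47 in the inhalation arm and between 2.98 and 3.42 in the injection arm. Control hearts were close to this level for 3 of the genes. Cxcl2 was above background in 7 of 16 HCN and 1 of 19 KCN hearts, and in 0 of 34 control hearts. Cxcl1 was above it in 15 of 16 HCN and 9 of 19 KCN hearts, against 13 of 16 air and 8 of 18 saline hearts. For Ccl7 these counts were 16 of 16 HCN and 15 of 19 KCN hearts, against 12 of 16 air and 15 of 18 saline hearts. Ccl2 was measurable in nearly all hearts, namely 16 of 16 HCN, 19 of 19 KCN, 16 of 16 air and 16 of 18 saline hearts. Where all controls of a comparison are below background, the fold is given against the background level, as a lower bound. Levels were not compared between genes or between routes. A probe set was tested if at least 1 group mean was above 3.23. Ccl2 met this in 18 groups, Ccl7 in 16 and Cxcl1 in 10, whereas Cxcl2 met it only in HCN 1 h and HCN 2 h, so that the filter itself selected Cxcl2 for being high there.

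The arrays carried heart RNA. All 5 cardiomyocyte markers measured were at 10.42 or more on each of the 69 arrays. The airway secretory transcript Scgb1a1 was nonetheless above background on 45 arrays, namely 12 of 16 HCN, 14 of 16 air, 16 of 19 KCN and 3 of 18 saline hearts. The log2 difference between the 3' and 5' control probe sets of actin (hereafter the actin ratio), a sign of RNA degradation when high, was above its control in HCN 2 h hearts (1.22 ± 0.611, against 0.452 ± 0.143 in air 2 h hearts, SD, n = 4 each) and in HCN 24 h hearts (0.979 ± 0.255, against 0.386 ± 0.0447 in air 24 h hearts). In the injection arm it was higher in the controls at 3 times, 0.48 ± 0.0799 in KCN 1 h against 0.841 ± 0.172 in saline 1 h hearts, 0.589 in KCN 4 h against 0.86 in saline 4 h hearts, and 0.473 in KCN 24 h against 0.878 in saline 24 h hearts. No 2 of the 69 arrays held identical values.

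Of the neutrophil ligands, Cxcl1 was strongly raised 1 h after HCN. Its log2 signals were 7.77, 7.18, 7.85 and 8.50 in HCN 1 h hearts, against 3.26, 3.24, 3.58 and 3.10 in air 1 h hearts. The groups were far apart, and the means were 7.82 ± 0.54 and 3.29 ± 0.20 (SD, n = 4 each). The log2 change was 4.53 ± 0.32 (SE), a 23.1-fold rise (limma, adjusted p = 4.08e-16), which ranked 4 of the 26773 probe sets tested. At 2 h the signals were 5.64, 6.32, 5.76 and 5.86 in HCN hearts, against 3.42, 3.33, 3.19 and 3.67 in air hearts, a log2 change of 2.49 ± 0.32 (adjusted p = 9.43e-08). At 4 h they were 5.04, 5.87, 4.39 and 4.55 in HCN hearts, against 3.44, 3.47, 3.69 and 3.49 in air hearts. Every HCN heart was still above every air heart, and the log2 change was 1.44 ± 0.32 (adjusted p = 0.00219). At 24 h the groups overlapped, with 3.19 to 3.51 in HCN hearts and 3.33 to 3.86 in air hearts (log2 change -0.13, 95% interval -0.78 to 0.52, adjusted p = 0.845).

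Cxcl2 was also strongly raised at 1 h, and its changes at 2 and 4 h were under 1 on the log2 scale. Its signals were 5.18, 5.98, 6.51 and 5.65 in HCN 1 h hearts, against 2.40, 2.74, 2.49 and 2.48 in air 1 h hearts. The 4 air values were all below background, so the log2 change of 3.30 ± 0.19 (adjusted p = 5.69e-20), a 9.85-fold difference in signal, is better read against the background level, as at least 6.21-fold higher. At 2 h the signals were 3.43, 3.23, 3.52 and 2.88 in HCN hearts, against 2.76, 2.52, 2.63 and 2.64 in air hearts. The groups did not overlap, but only 2 of the HCN hearts were above background, and the log2 change was 0.63 ± 0.19 (adjusted p = 0.0105). This call was lost with the actin ratio in the model (0.63, adjusted p = 0.0793) and without the HCN 2 h replicates 1 and 2, whose actin ratios were highest (0.56, adjusted p = 0.104). At 4 h the values were 2.92, 3.71, 2.78 and 2.92 in HCN hearts, against 2.50, 2.54, 2.69 and 2.52 in air hearts. Again no values overlapped, but the log2 change of 0.52 ± 0.19 did not pass the test (adjusted p = 0.0831). At 24 h the ranges were 2.55 to 2.78 in HCN hearts and 2.25 to 2.72 in air hearts (log2 change 0.10, adjusted p = 0.783).

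**Figure D1:**
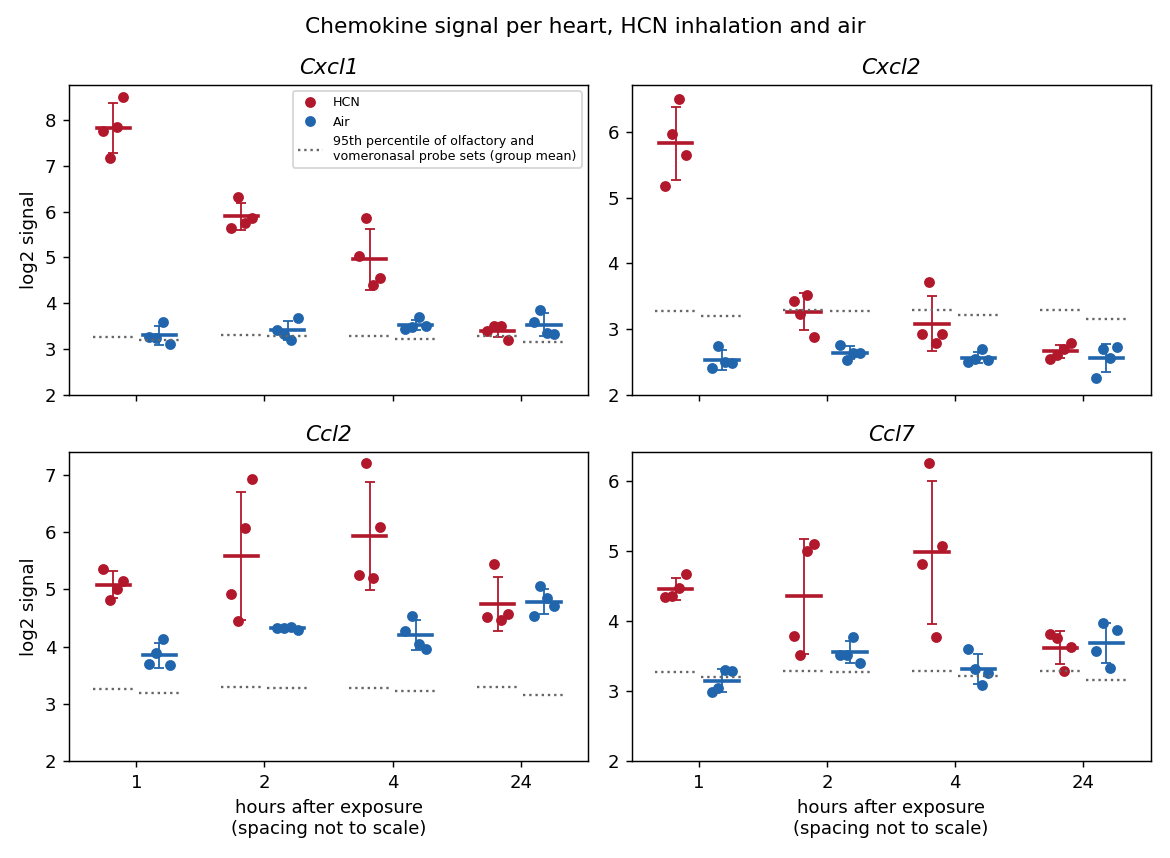
Log2 signal of the 4 chemokine genes in each heart of the inhalation arm by hours after exposure (HCN left of air at each time; thick lines are means, error bars SD, dotted lines the background level as group means). Cxcl1 and Cxcl2 are highest at 1 h after HCN (means 7.82 and 5.83), Ccl2 and Ccl7 at 4 h (5.93 and 4.97), and at 24 h the HCN and air hearts overlap for all 4 genes.

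The monocyte ligands Ccl2 and Ccl7 also rose by 1 h after HCN, and their highest HCN means were those at 4 h. Ccl2 was at 5.36, 4.81, 5.01 and 5.14 in HCN 1 h hearts, against 3.69, 3.88, 4.13 and 3.68 in air 1 h hearts. The log2 change was 1.23 ± 0.34 (adjusted p = 0.0274) and its call was not stable, since leaving out 1 array at a time lost it in 6 of 8 cases (1.14 to 1.33, adjusted p 0.0328 to 0.0968). Those 6 were the fits without air 1 h replicates 1, 2 and 4 and without HCN 1 h replicates 1, 3 and 4. At 2 h the HCN hearts were at 4.91, 4.45, 6.06 and 6.92, against 4.32, 4.33, 4.34 and 4.28 in air hearts. The 4 air hearts were nearly alike, while the HCN hearts ran from just above them to far above. The log2 change was 1.27 ± 0.34 (adjusted p = 0.00359), but 0.82 (adjusted p = 0.061) without HCN 2 h replicate 4. At 4 h the values were 5.25, 7.20, 5.19 and 6.09 in HCN hearts, against 4.27, 4.53, 4.04 and 3.95 in air hearts. This was a 3.32-fold rise (log2 change 1.73 ± 0.34, adjusted p = 0.00033), with means of 5.93 ± 0.94 and 4.20 ± 0.26 (SD, n = 4 each). At 24 h HCN hearts were at 4.51, 5.44, 4.46 and 4.56, against 4.54, 5.05, 4.85 and 4.70 in air hearts (log2 change -0.04, adjusted p = 0.955).

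Ccl7 followed a like course. Its signals were 4.34, 4.35, 4.47 and 4.67 in HCN 1 h hearts, against 2.98, 3.04, 3.30 and 3.28 in air 1 h hearts, a log2 change of 1.31 ± 0.29 (adjusted p = 0.00303). The groups were well separated. At 2 h they were 3.79, 3.51, 5.0 and 5.09 in HCN hearts, against 3.52, 3.51, 3.77 and 3.40 in air hearts. These groups overlapped, and the log2 change of 0.79 ± 0.29 (adjusted p = 0.0338) was not called without HCN 2 h replicate 3 (0.58, adjusted p = 0.164), without HCN 2 h replicate 4 (0.55, adjusted p = 0.186) or without air 2 h replicates 1, 2 or 4 (adjusted p 0.0646, 0.0646 and 0.0701). At 4 h the signals were 4.81, 6.25, 3.77 and 5.07 in HCN hearts, against 3.60, 3.31, 3.08 and 3.25 in air hearts. All HCN values were above all air values, with a log2 change of 1.66 ± 0.29 (3.17-fold, adjusted p = 5.35e-05). At 24 h the ranges were 3.28 to 3.81 in HCN hearts and 3.33 to 3.97 in air hearts (log2 change -0.06, adjusted p = 0.916). With the actin ratio in the model the 24 h log2 change was 0.84 for Ccl2 (adjusted p = 0.167), 0.40 for Ccl7 (adjusted p = 0.633), -0.33 for Cxcl1 (adjusted p = 0.774) and 0.11 for Cxcl2 (adjusted p = 0.898), so that the values near 0 of the monocyte ligands at 24 h depended on that setting. The ratios of HCN 24 h (0.64 to 1.25) and air 24 h hearts (0.32 to 0.41) did not overlap. That fit therefore cannot separate the ratio from HCN at 24 h.

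In HCN 2 h hearts the low and high Ccl2 and Ccl7 values went with the actin ratio. It was 1.49 and 1.95 in replicates 1 and 2, where both genes were low, and 0.79 and 0.64 in replicates 3 and 4, where both were high. Without replicates 1 and 2 the log2 change at 2 h was 2.17 for Ccl2 (adjusted p = 4.03e-05) and 1.49 for Ccl7 (adjusted p = 0.00119). With the actin ratio in the model it was 2.42 for Ccl2 and 1.39 for Ccl7, whereas Cxcl1 stayed at 2.24 (adjusted p = 0.000221). The ratio varied most in these HCN 2 h hearts (SD 0.611), so its fitted slope leans on them. This fit is thus not independent of the one without replicates 1 and 2. In HCN 4 h hearts the summed signal of the airway markers was 19070, 52.07, 13000 and 53.38 in replicates 1 to 4, against 20080, 20350, 2543 and 6570 in air 4 h hearts. Ccl2 was higher in replicates 2 and 4, those with low sums. The airway level put in models was not this sum but the mean log2 signal of the airway transcripts Scgb1a1 and Bpifa1. With the airway level in the model the 4 h log2 change was 1.57 for Ccl2 (adjusted p = 0.000919), 1.53 for Ccl7 (adjusted p = 0.000157) and 1.34 for Cxcl1 (adjusted p = 0.00546).

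Counted together, 4 of the 4 genes rose at 1 h after HCN, 4 at 2 h, 3 at 4 h and 0 at 24 h, where 0 had an unadjusted p under 0.05. Of all probe sets tested, 1.38%, 8.79%, 2.87% and 5.08% rose in these comparisons. Cxcl2 passed the filter only through HCN 1 h and HCN 2 h hearts, so its place in the counts at 1 and 2 h depends partly on the filter. With limma and no filter, its adjusted p was 1.15e-20 at 1 h and 0.0147 at 2 h. HCN and air groups did not overlap for 4 of the genes at 1 h, 3 at 2 h and 4 at 4 h, against 4.14%, 7.23% and 5.09% of all probe sets that lay wholly higher in HCN hearts. The median log2 change of all tested probe sets was between -0.04 and 0.04 in each of the 4 comparisons.

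The HCN change itself differed between times for all 4 genes (F tests over the 4 times). F was 36.2 for Cxcl1 (adjusted p = 1.15e-09), 59.3 for Cxcl2 (2.45e-13), 5.12 for Ccl2 (0.0181) and 6.88 for Ccl7 (0.00459). Such a difference was called for 27.3% of all probe sets. The neutrophil ligands dropped early. The Cxcl1 change was smaller at 2 h than at 1 h (difference -2.04 ± 0.46, adjusted p = 0.00171), and so was the Cxcl2 change (-2.67 ± 0.27, adjusted p = 6.06e-10), in a contrast where 8.73% of all probe sets were lower. For Ccl2 this difference was 0.03 (adjusted p = 0.975) and for Ccl7 -0.52 (adjusted p = 0.431). Between 4 h and 1 h it was -3.09 ± 0.46 for Cxcl1 (adjusted p = 5.25e-06) and -2.78 ± 0.27 for Cxcl2 (adjusted p = 5.84e-11), with 2.83% of all probe sets lower. It was 0.50 for Ccl2 (adjusted p = 0.649) and 0.35 for Ccl7 (adjusted p = 0.718). The larger Ccl2 and Ccl7 changes at 4 h were therefore not told apart from those at 1 h. Between 4 h and 2 h 0 of the 4 genes passed with limma (2 at an unadjusted p under 0.05), with differences of -1.05 for Cxcl1 (adjusted p = 0.18), -0.11 for Cxcl2, 0.46 for Ccl2 and 0.87 for Ccl7 (adjusted p = 0.216), and 5.23% of all probe sets were called in either direction. The smaller change at 24 h was called for 3 genes, with differences between 24 h and 4 h of -1.57 for Cxcl1 (adjusted p = 0.0178), -1.77 for Ccl2 (adjusted p = 0.00939) and -1.73 for Ccl7 (adjusted p = 0.00304), and 5.38% of all probe sets lower. With the actin ratio in the model, which was 0.979 in HCN 24 h and 0.411 in HCN 4 h hearts, this call was lost for Ccl2 (-0.90, adjusted p = 0.245) and Ccl7 (-1.27, adjusted p = 0.0668) and kept for Cxcl1 (-1.77, adjusted p = 0.0315). The Cxcl1 call was lost without HCN 4 h replicate 2 (-1.27, adjusted p = 0.0657). The air controls did not pass a test of change over time for any of the 4 genes, with an adjusted p of 0.169 (unadjusted 0.0563) for Ccl2 and 0.427 to 0.964 for the others. Among all probe sets 16.7% passed it.

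**Figure D2:**
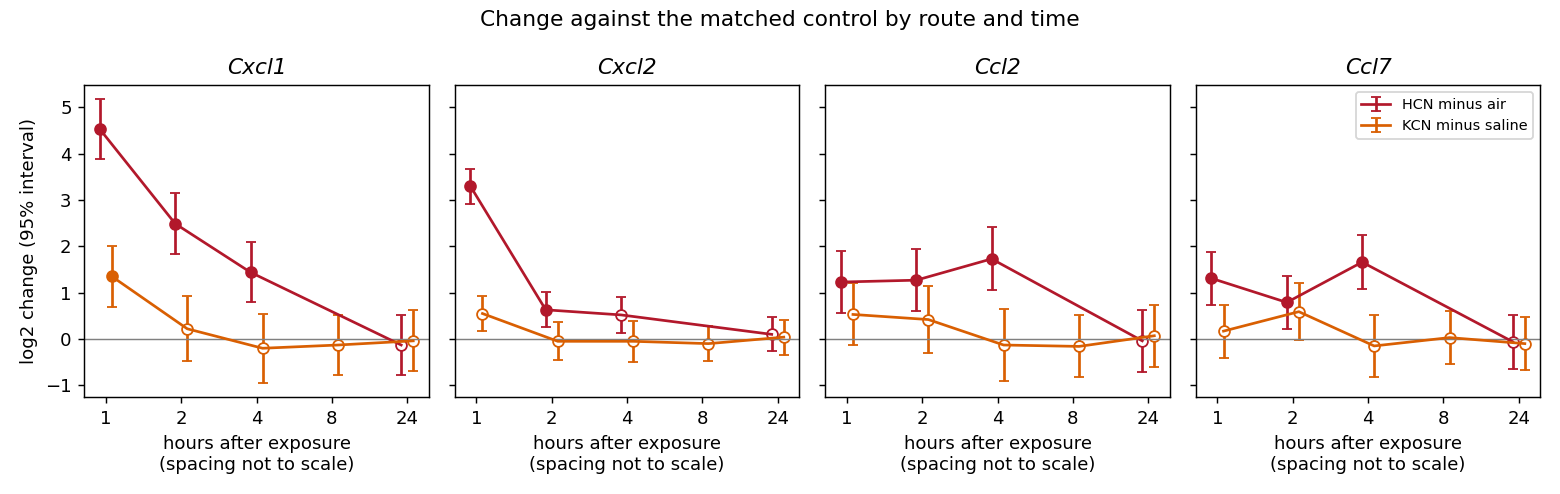
Log2 change of each chemokine gene against its own control by hours after exposure, HCN minus air and KCN minus saline, with 95% intervals (filled points have an adjusted p under 0.05). The HCN change of Cxcl1 and Cxcl2 is largest at 1 h (4.53 and 3.30) and is near 0 at 24 h, and after KCN only Cxcl1 at 1 h is filled (1.35).

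The genomic neighbours were set side by side across the inhalation hearts. Hearts taken 1 h after HCN stood apart on Cxcl1 and Cxcl2, and every HCN 2 h and HCN 4 h heart was above every air heart in Cxcl1. In the other pair the heart highest in Ccl7 (HCN 4 h replicate 2, 6.25) was also the highest in Ccl2 (7.20). The same heart had the highest Cxcl1 (5.87) and Cxcl2 (3.71) of its group.

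**Figure D3:**
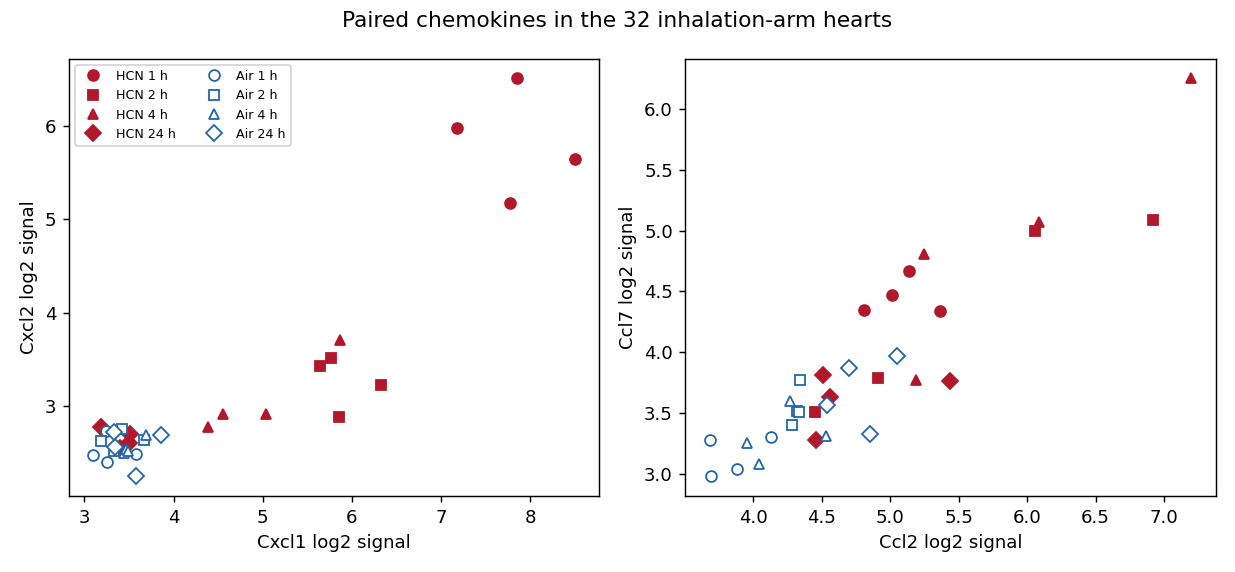
Log2 signal of Cxcl2 against Cxcl1 (left) and of Ccl7 against Ccl2 (right), 1 point per heart of the 32 in the inhalation arm, HCN filled and air open, with shapes for hours after exposure. The HCN 1 h hearts lie apart at the upper right for Cxcl1 and Cxcl2, while HCN 2 h and HCN 4 h hearts reach the highest Ccl2 and Ccl7 values (6.92 and 7.20 for Ccl2).

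After KCN only Cxcl1 at 1 h passed the test. Its signals were 3.86, 4.14, 6.52 and 3.21 in KCN 1 h hearts, against 2.95, 3.51, 3.01 and 2.87 in saline 1 h hearts. A single KCN heart was high, and another was below the highest saline heart. The log2 change was 1.35 ± 0.32 (2.55-fold, adjusted p = 0.00806), and without KCN 1 h replicate 3 it was 0.66 (adjusted p = 0.164). Cxcl2 was at 2.52, 3.09, 3.96 and 2.49 in KCN 1 h hearts, against 2.32, 2.61, 2.62 and 2.32 in saline 1 h hearts. Replicate 3 was again the highest and the only one above background, and the log2 change of 0.55 ± 0.19 did not pass (adjusted p = 0.0879). It passed without KCN 1 h replicate 1 (0.71, adjusted p = 0.0311) and without KCN 1 h replicate 4 (0.72, adjusted p = 0.0257). Ccl2 was at 3.87, 3.75, 4.10 and 3.99 in KCN 1 h hearts, against 3.59, 3.34, 3.17 and 3.48 in saline 1 h hearts. These groups did not overlap, as for 6.53% of all probe sets, but the log2 change of 0.53 ± 0.34 did not pass (95% interval -0.14 to 1.20, adjusted p = 0.426). With the actin ratio in the model, whose mean was lower in KCN 1 h than in saline 1 h hearts, the Ccl2 change was -0.01 (adjusted p = 0.992). Ccl7 was at 3.30, 3.18, 3.81 and 3.39 in KCN 1 h hearts, against 3.43, 3.47, 2.87 and 3.24 in saline 1 h hearts (log2 change 0.17, adjusted p = 0.823), and its change was -0.12 (adjusted p = 0.896) with the actin ratio. Thus 1 of the 4 genes rose, and of all probe sets 1.57% did. The airway sum was 6200 to 10830 in KCN 1 h hearts and 43.85 to 47.41 in saline 1 h hearts. With the airway level in the model the Cxcl1 change was 1.58 (adjusted p = 0.00573). Since the airway sums of these groups did not overlap, that fit rests on the slope within groups. It cannot separate KCN from airway RNA. The Cxcl1 change was 1.47 (adjusted p = 0.00835) with the actin ratio.

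At the later times after KCN 0 of the 4 genes passed with limma, in either direction, and 0 had an unadjusted p under 0.05. Over all probe sets 3.29%, 1.21%, 0.138% and 6.79% rose at 2, 4, 8 and 24 h. The widest spread was at 2 h, where Ccl2 was at 4.49, 3.61, 5.63 and 3.59 in KCN hearts, against 3.88, 3.97 and 3.88 in saline hearts (log2 change 0.42, adjusted p = 0.568). Ccl7 was at 3.91, 3.13, 4.67 and 3.43 in KCN 2 h hearts, against 3.50, 3.05 and 3.02 in saline 2 h hearts (log2 change 0.59, 95% interval -0.03 to 1.21, adjusted p = 0.274). Cxcl1 was at 3.82, 2.78, 3.94 and 2.81 in KCN 2 h hearts, against 3.26, 2.88 and 3.21 in saline 2 h hearts (log2 change 0.22, adjusted p = 0.798). In all 3 genes replicates 1 and 3 were the higher ones, and their airway sums were 43.44 and 46.76, against 12780 and 9753 in replicates 2 and 4. With the airway level in the model the 2 h changes were 0.62 for Ccl2 (adjusted p = 0.353), 0.76 for Ccl7 (adjusted p = 0.132) and 0.34 for Cxcl1 (adjusted p = 0.675). At 4, 8 and 24 h the log2 changes of the 4 genes were between -0.20 and 0.07. The Ccl2 change was -0.53 at both 4 h (adjusted p = 0.406) and 24 h (adjusted p = 0.275) with the actin ratio in the model. A change of the KCN effect over the 5 times was not called for any gene (adjusted p = 0.0524, unadjusted 0.00885, for Cxcl1 and adjusted p of at least 0.262 for the others), and was called for 16.4% of all probe sets. Saline controls over time did not pass either, with an adjusted p of 0.0894 (unadjusted 0.0411) for Ccl2 and 0.757 to 0.999 for the others, against 38.3% of all probe sets that passed.

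**Figure D4:**
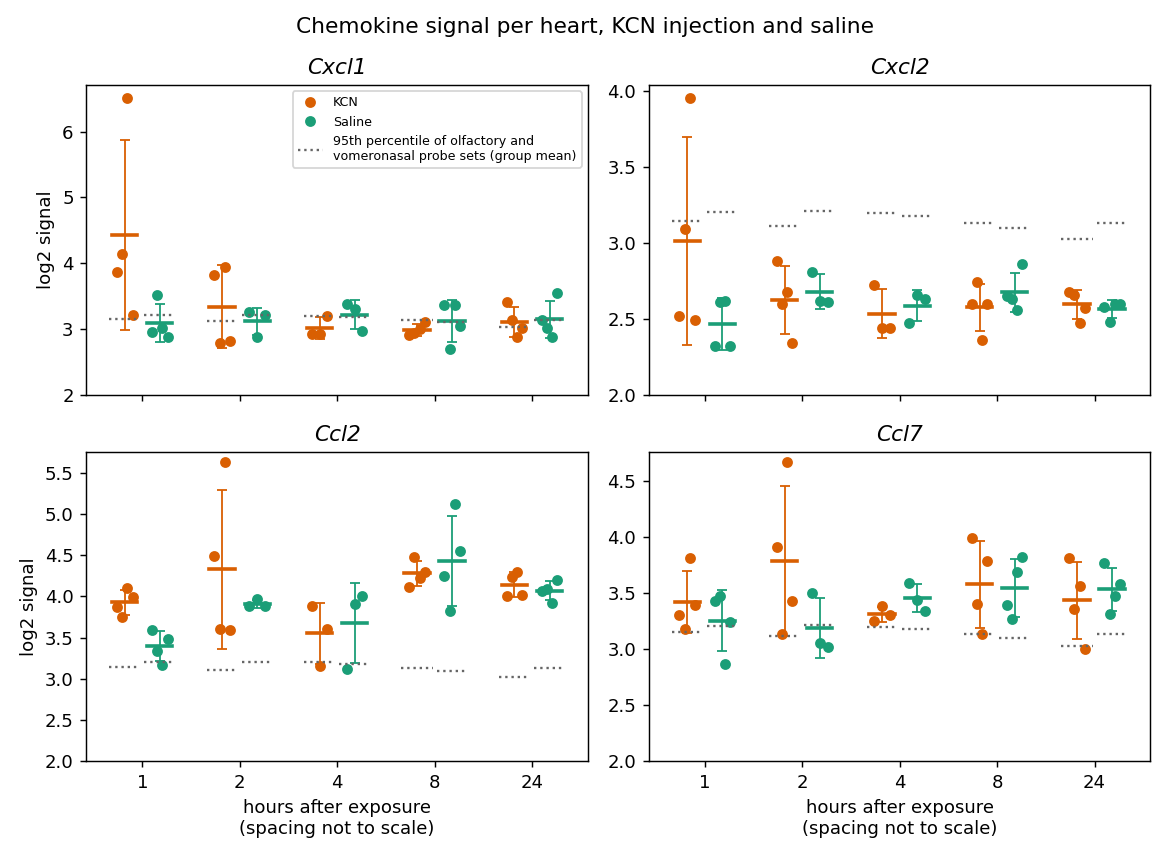
Log2 signal of the 4 chemokine genes in each heart of the injection arm by hours after exposure (KCN left of saline at each time; thick lines are means, error bars SD, dotted lines the background level as group means). At 1 h 1 KCN heart is far above the rest for Cxcl1 (6.52) and Cxcl2 (3.96), and from 4 h on the KCN and saline hearts overlap for all 4 genes.

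The routes were compared by subtracting the KCN change from the HCN change at each shared time. The amounts given by the 2 routes differ in kind (ppm inhaled and mg/kg injected), so that route and dose cannot be told apart. At 1 h the difference was 3.18 ± 0.46 for Cxcl1 (adjusted p = 3.01e-05) and 2.75 ± 0.27 for Cxcl2 (adjusted p = 4.01e-10). Such a larger HCN change was called for 0.164% of all probe sets. The Cxcl2 controls of both routes lay below background at 1 h, as did 3 of 4 KCN hearts, so the size of its difference rests partly on signals below background. For Ccl2 the difference was 0.71 (95% interval -0.25 to 1.66, adjusted p = 0.728) and for Ccl7 1.14 (0.33 to 1.96, adjusted p = 0.326), so that neither passed. At 2 h 1 of the 4 genes passed, Cxcl1 with 2.28 ± 0.48 (adjusted p = 0.00315), against 2.15% of all probe sets. At 4 h 2 of the 4 passed, Ccl2 with 1.86 ± 0.51 (adjusted p = 0.0418) and Ccl7 with 1.81 ± 0.44 (adjusted p = 0.0205), against 0.646% of all probe sets. Both were lost with the airway level in the model (1.37, adjusted p = 0.22, and 1.39, adjusted p = 0.127). Leaving out 1 array lost the Ccl2 call in 11 of 14 cases (1.44 to 2.03), all but those without HCN 4 h replicates 1 and 3 and saline 4 h replicate 1. It lost the Ccl7 call in 3 cases, those without HCN 4 h replicate 2 (1.38), KCN 4 h replicate 1 (1.78) and saline 4 h replicate 2 (1.82). Cxcl1 at 4 h was at 1.64 ± 0.50 (adjusted p = 0.0654). At 24 h the differences were between -0.11 and 0.07 and 0 of the 4 passed (0 at an unadjusted p under 0.05), while 8.09% of all probe sets did. With the actin ratio in the model the 24 h difference was 1.38 for Ccl2 (adjusted p = 0.0996) and 0.81 for Ccl7 (adjusted p = 0.38).

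Among the inducers and feedback genes of the pathway, members of the NF-kB list rose at 1 h after either exposure. Of 13 genes, 4 rose and 0 fell at 1 h after HCN. They were Nfkbiz, a nuclear co-activator induced by NF-kB signalling (3.32 ± 0.27, adjusted p = 3.67e-14), Tnfaip3, which encodes the inhibitor A20 (1.60 ± 0.23), Nfkbia, which encodes the cytoplasmic inhibitor (1.27 ± 0.15), and the subunit Rel (1.04 ± 0.21). The same 4 genes rose at 1 h after KCN, with Nfkbiz at 1.14 ± 0.27 and Nfkbia at 0.90 ± 0.15. The list's median log2 change was 0.02 after HCN and 0.04 after KCN at 1 h. At 2 h after HCN 4 rose (Nfkbia, Bcl3, Nfkbiz and Rel), and at 4 h 2 did (Nfkbia and Bcl3). Tnip1 (0.40 ± 0.10) and Ikbkg (0.44 ± 0.09) rose at 24 h after HCN. Later than 1 h after KCN, Nfkbia rose at 2 h (0.99 ± 0.16), and Relb (0.67 ± 0.19) and Nfkbib (0.77 ± 0.17) rose at 24 h. In either direction 2.68% of all probe sets were called at 1 h after HCN, 25.3% at 2 h, 7.35% at 4 h and 14.3% at 24 h, and after KCN 4.09%, 6.59%, 2.26%, 0.336% and 11.9% at 1, 2, 4, 8 and 24 h.

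Of 14 inducing cytokines and cytokine receptors, Il6 alone rose at 1 h after HCN (1.17 ± 0.19, adjusted p = 4.03e-05), against 2.68% of all probe sets. The Il6 mean was 3.76 in HCN 1 h and 2.58 in air 1 h hearts. This air mean was below the lowest background level of the arm (3.05). The size of the Il6 change thus rests partly on signals below background. The Il6 mean was above the filter in HCN 1 h hearts and below it in air 1 h hearts. The filter may thus have selected Il6 for being high in HCN hearts. At 2 h, when 25.3% of all probe sets were called in either direction, 3 rose, namely Il1b, whose product drives chemokine expression (0.61 ± 0.17), its receptor gene Il1r1 (0.62 ± 0.19) and Il6ra (1.07 ± 0.19). At 4 h Il1r1 (1.13 ± 0.19), Il6ra (0.88 ± 0.19) and the TNF receptor gene Tnfrsf1a (0.65 ± 0.12) rose, and Il18 fell (-0.81 ± 0.22), against 7.35% of all probe sets. After KCN Il6ra rose at 2 h (0.71 ± 0.21) and Tnfrsf1a at 24 h (0.38 ± 0.12). Of 5 genes whose proteins destabilise inflammatory messenger RNAs, through AU-rich or stem-loop elements, Zc3h12a rose (0.49 ± 0.11) and Rc3h1 fell (-0.94 ± 0.12) at 1 h after HCN. Rc3h1 also fell at 1 h after KCN (-0.49 ± 0.12).

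Few other chemokine ligands passed at 1 h. Of 25 tested, 1 rose at 1 h after HCN, Ccl4 (0.50 ± 0.13), against 2.68% of all probe sets called in either direction. The list's median was 0.19. Ccl4 was near background, at means of 3.32 in HCN 1 h and 2.82 in air 1 h hearts. These means were above the filter in HCN hearts only. The filter may thus have selected Ccl4 for being high there. Cxcl5, another ligand of Cxcr2, was among 3 too dim to be tested. At 2 h 6 rose, in the comparison where 25.3% of all probe sets were called, with Cxcl14 the most (1.76 ± 0.44) beside Ccl11, Pf4, Ccl3, Ccl9 and Ccl4, and Ccl25 fell (-1.49 ± 0.52). Ccl3 (means of 3.40 in HCN and 2.82 in air hearts) and Ccl4 (3.41 and 3.06) were near background there. Both genes were above the filter in HCN 2 h hearts and below it in air 2 h hearts, so the same limit applies. At 4 h Ccl9, a Ccr1 ligand, rose by 1.28 ± 0.20 (adjusted p = 1.57e-05) and Ccl17 by 0.40 ± 0.12, against 7.35% of all probe sets. Ccl17 was near background, at means of 3.36 in HCN 4 h and 2.96 in air 4 h hearts. It was above the filter only in the HCN hearts of this comparison, which may have selected it in the same way. After KCN 2 rose at 1 h (Ccl11 and Pf4), against 4.09% of all probe sets called in either direction. The platelet chemokine genes Ppbp (-2.22 ± 0.56) and Pf4 (-0.74 ± 0.20) fell at 2 h, against 6.59%. Both are themselves among the 6 platelet markers, all of which fell at 2 h. The summed platelet signal was 376.9 to 556.6 in KCN 2 h and 710.2 to 1583 in saline 2 h hearts. In saline hearts of the other times it lay between 297.7 and 816.9. At 4 h after KCN Ccl9 (0.84 ± 0.24) and Ccl6 (0.84 ± 0.23) rose, and at 24 h Ccl19 (0.95 ± 0.33) and Cxcl16 (0.64 ± 0.16) rose. Of all probe sets 2.26% and 11.9% were called at these times.

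Of 10 receptors tested, Ackr3, a scavenging receptor that does not signal through G proteins, rose at 1 h after HCN (0.77 ± 0.17) and at 1 h after KCN (0.56 ± 0.17). In these comparisons 2.68% and 4.09% of all probe sets were called in either direction. Cx3cr1 fell at 2 h after KCN (-1.27 ± 0.31), against 6.59%, and Ackr4 fell at 24 h after HCN (-0.47 ± 0.17), against 14.3%. Ccr1, which Ccl7 also binds, rose at 4 h after HCN (1.23 ± 0.31, adjusted p = 0.0065), against 7.35%. Cxcr2, which Cxcl1 and Cxcl2 bind, and Ccr2, which Ccl2 and Ccl7 bind, did not pass at 4 h after HCN. Their log2 changes were 0.31 ± 0.11 (adjusted p = 0.0906) and 0.09 ± 0.14 (adjusted p = 0.792). Both were near background, at means of 3.38 and 3.14 in HCN 4 h hearts and 3.07 and 3.05 in air 4 h hearts.

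Some leukocyte adhesion genes and neutrophil transcripts passed the test at 2 and 4 h after HCN and not at 1 h, in comparisons where 25.3%, 7.35% and 2.68% of all probe sets were called at 2, 4 and 1 h. Whether these lists differed between the times was not tested. Of 6 adhesion genes 0 passed at 1 h, and 2 had an unadjusted p under 0.05. At 2 h 1 of the 6 rose, Icam1 (1.24 ± 0.20), and 1 fell, Selplg (-0.65 ± 0.23). With 25.3% of all probe sets called at 2 h, these 2 calls say little about the list. At 4 h 4 rose, Selp (1.10 ± 0.19), Icam1 (0.86 ± 0.20), Vcam1 (0.78 ± 0.15) and Sele (0.42 ± 0.13). Sele was close to the filter of 3.23, at means of 3.27 in HCN 4 h and 2.85 in air 4 h hearts. The filter may thus have selected it for being high there. Of 7 endothelium markers 3 fell at 2 h after HCN, Pecam1 (-1.20 ± 0.24), Kdr (-0.70 ± 0.19) and Emcn (-0.35 ± 0.13), and 2 fell at 4 h, Tek (-0.49 ± 0.14) and Emcn (-0.45 ± 0.13). Pecam1 also fell at 24 h after HCN (-0.94 ± 0.24), while Emcn rose at 1 h after HCN (0.45 ± 0.13) and KCN (0.43 ± 0.13). Kdr fell at 2 h after KCN (-0.68 ± 0.21), and Tie1 (0.86 ± 0.24) and Vwf (0.84 ± 0.20) rose at 24 h. The actin ratio was above its control in HCN 2 h (1.22) and HCN 24 h hearts (0.979), and the listed genes were not fitted with it. The summed endothelium signal was 1549 to 1704 in HCN 2 h hearts, against 1763 to 2260 in air 2 h hearts, and 1870 to 2465 in HCN 4 h hearts, against 2159 to 2377 in air 4 h hearts. After KCN 0 of the 6 adhesion genes passed at any time, with at most 2 at an unadjusted p under 0.05. Of 9 neutrophil markers tested, 0 passed at 1 h after HCN (median -0.08, 1 at an unadjusted p under 0.05), 4 rose at 2 h (median 0.39) and 4 at 4 h (median 0.50). Il1r2 was among these at both times, with means of 3.55 and 3.59 in HCN and 2.86 and 2.78 in air hearts. Mmp8 was among them at 4 h (3.48 in HCN and 2.66 in air hearts). These means were above the filter of 3.23 in HCN hearts only. The filter may thus have selected both genes for being high there. The largest changes at 4 h were those of the calprotectin genes S100a8 (2.61 ± 0.53, adjusted p = 0.000643) and S100a9 (2.62 ± 0.52, adjusted p = 0.000484). The summed signal of 10 neutrophil markers was 738.8, 707.7, 714.2 and 422.9 in HCN 4 h hearts, against 171.0, 201.5, 146.4 and 154.8 in air 4 h hearts. At 2 h it was 878.8, 1161, 392.9 and 333.8 in HCN hearts, against 558.2, 174.8, 184.3 and 201.9 in air hearts. At 1 h the sums were 190.5 to 262 in HCN hearts and 129.6 to 924.1 in air hearts. At 4 h 6 to 9 of the 10 markers were above background in HCN hearts, against 5 to 7 in air hearts, where Mmp8, Il1r2 and Trem1 were below it on all arrays. The higher 2 h sums were in replicates 1 and 2, which were the lower ones in Ccl2 and Ccl7. After KCN 0 of the 9 markers passed at any time, with at most 1 at an unadjusted p under 0.05. Of 6 monocyte markers, 1 rose at 4 h after HCN, Vcan (1.17 ± 0.26), a matrix gene that fibroblasts also express. Vcan also rose at 4 h after KCN (1.34 ± 0.30, adjusted p = 0.0118), and Plac8 rose at 1 h after KCN (1.55 ± 0.38, adjusted p = 0.0091). The monocyte sums overlapped at 4 h, with 734.7 to 777.4 in HCN hearts and 611.2 to 896.9 in air hearts, where Ccr2 and Fcgr4 were below background on all arrays. Of 10 cardiac macrophage markers, 2 rose at 4 h after HCN, Lyve1 (1.10 ± 0.23) and C1qb (0.47 ± 0.15), and Timd4 fell (-0.84 ± 0.24). The summed signal of the 10 did not overlap, with 2091 to 2271 in HCN 4 h hearts and 1508 to 1874 in air 4 h hearts. Such a sum weighs the brightest genes most, and the list's median log2 change at 4 h was 0.11. At 1 h after HCN Fcgr1 alone rose (0.79 ± 0.21), and at 2 h Lyve1, Mrc1 and Adgre1 rose and C1qb fell (-0.65 ± 0.15). The macrophage sums overlapped at 1 h (1848 to 1966 in HCN and 1411 to 1998 in air hearts) and at 2 h (1162 to 1804 and 1196 to 1698). After KCN C1qb (0.49 ± 0.15) and Fcgr1 (0.84 ± 0.21) rose at 1 h, and C1qb rose at 4 h (0.62 ± 0.17). At 24 h Cd68 (0.76 ± 0.20), Csf1r (0.63 ± 0.15) and C1qb (0.59 ± 0.15) rose. Of all probe sets 4.09%, 2.26% and 11.9% were called at 1, 4 and 24 h. The macrophage sums were 1438 to 1930 in KCN 4 h hearts, against 1053 to 1274 in saline 4 h hearts. They were 1223 to 1521 in KCN 24 h hearts, against 1018 to 1182 in saline 24 h hearts, and overlapped at 1, 2 and 8 h. The list's median log2 change after KCN was 0.45 at 4 h and 0.20 at 24 h. Among the fibroblast markers, Tcf21 fell and Pdgfra rose at 2 h (-1.21 ± 0.21 and 0.66 ± 0.19) and 4 h (-1.23 ± 0.21 and 0.86 ± 0.19) after HCN. Tcf21 also fell at 24 h after HCN (-0.75 ± 0.21) and at 2 h after KCN (-1.06 ± 0.23). Whether a changed number of leukocytes plays a part in the chemokine values was not tested.

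**Figure D5:**
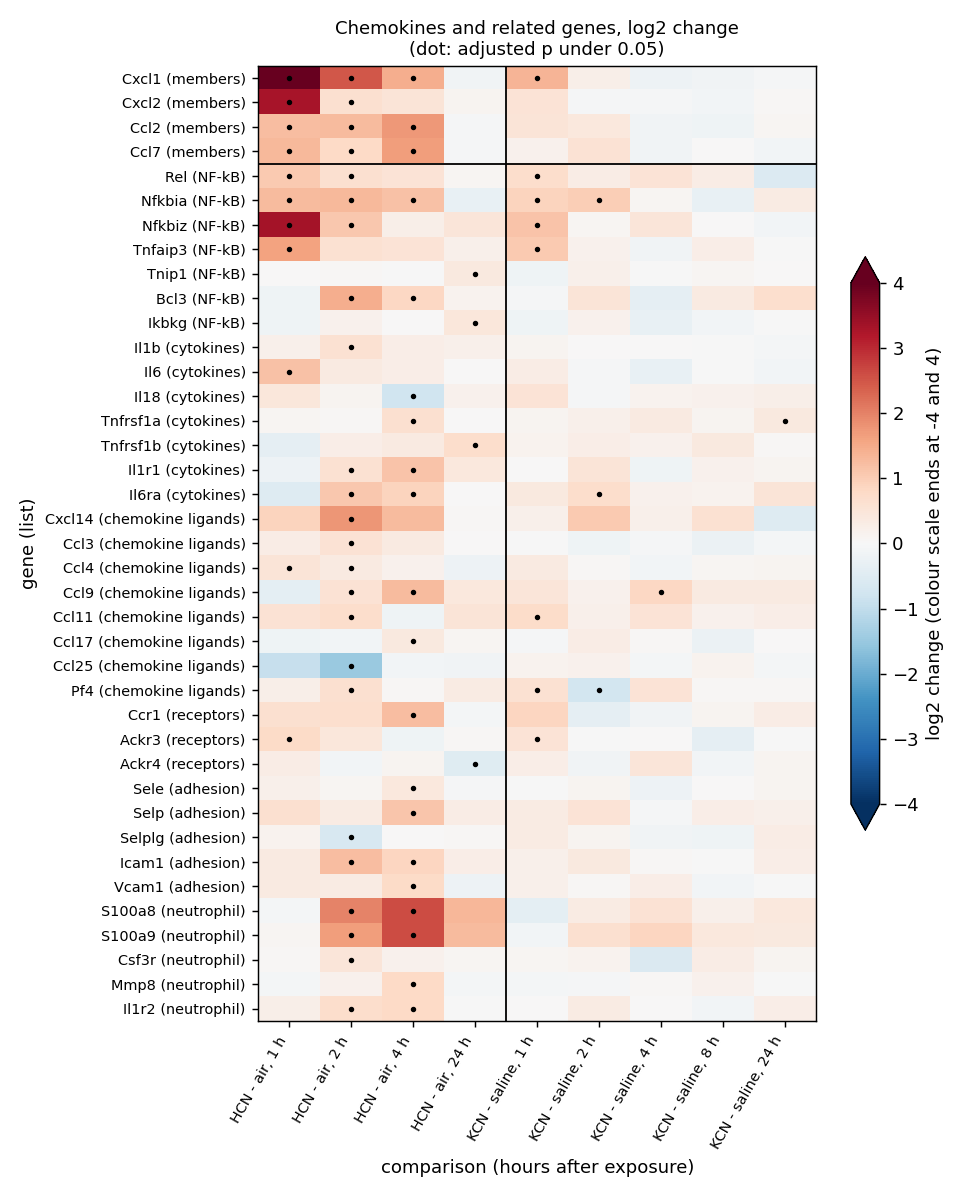
Log2 change against control (colour, ending at -4 and 4) of the 4 chemokine genes and of the 35 genes of the NF-kB, cytokine, ligand, receptor, adhesion and neutrophil lists called in at least 1 HCN comparison, in the 4 HCN and 5 KCN comparisons (dots mark an adjusted p under 0.05). Cxcl1, Cxcl2 and Nfkbiz are darkest at 1 h after HCN (4.53, 3.30 and 3.32), and S100a8 and S100a9 at 4 h (2.61 and 2.62).

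The genes whose pattern over the 69 arrays was most like that of each chemokine differed between the pairs. Likeness was Pearson's r over 12432 genes after each array was centred on the mean of its arm, and it is given as a description, since the arrays share groups and scaling and the HCN 1 h hearts form a cluster of their own for Cxcl1 and Cxcl2. Cxcl1 was most like Nfkbiz (0.892), followed by the immediate early genes Fosb (0.862) and Egr1 (0.855), the potassium channel subunit gene Kcne4 (0.852) and Egr2 (0.839). Cxcl2 was most like Ier2 (0.888), Fosb (0.866), Nfkbiz (0.857), the phosphatase gene Dusp1 (0.817) and Apold1 (0.798). Ccl2 and Ccl7 had weaker partners. The nearest to both was Ch25h, which encodes cholesterol 25-hydroxylase (0.727 and 0.707). For Ccl2 the others were Ccr1 (0.644), Ccl12 of the same chemokine cluster (0.631), Hmox1 (0.625) and Medag (0.599). For Ccl7 they were Ptx3 (0.665), Selp (0.636), Socs3 (0.626) and Hmox1 (0.626). The choice of partners depended on the measure and on the arm. By Spearman's rho, 1 of the 5 partners was shared for Cxcl1, 1 for Cxcl2, 3 for Ccl2 and 3 for Ccl7. In the inhalation arrays alone, 3 were shared for Cxcl1, 4 for Cxcl2, 3 for Ccl2 and 3 for Ccl7. In the injection arrays alone these counts were 2, 2, 1 and 0.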

How the data were processed

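Total RNA was extracted from hearts, and 100 ng of each was labelled for 3' expression arrays, per the labels. The deposited values are log2 signals per probe set, summarised and normalized between arrays by the authors, and MAS5 is named in the submitters' processing notes without a version or role. The log2 scale was read from the values (1.83 to 13.94). The 95th percentiles differ between the arms (medians 9.52 in the 32 inhalation and 9.24 in the 37 injection arrays), so levels were compared within an arm only. No scan batch was used, as none is given.

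Probe sets were named from the platform annotation. Tested were the 26773 of 45141 probe sets with a group mean above the median of all group means (3.23). In R 4.3.3, limma 3.58.1 fitted 18 group means to the 69 arrays (51 residual degrees of freedom, eBayes with trend, 5.53 prior). Tests were two-sided, adjusted by Benjamini-Hochberg within each comparison and called at 0.05. The number of arrays limits the precision. The procedure was tested on simulated data.

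The genes described are the 4 chemokine genes, many of the context list members that were called, the receptors of the ligands, and the 5 genes most like each chemokine gene. Not every called member of the context lists is described. Members and lists were chosen with earlier results of these data known. Differences between times, the airway covariate and a fit without replicates 1 and 2 of HCN 2 h were added after the data were seen. An alternative with other probe sets did not arise, since each gene had 1. Figures used matplotlib 3.10.9.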

Additional observations from a re-analysis of the deposited data

Results flagged for a closer look

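By a gap test for 1 far array within a group (Dixon's, at its 95% critical value), 3 of 60 combinations of a gene and a group stood out, and chance gives about 1 in 20. Cxcl2 in HCN 4 h replicate 2 was the highest of its group, at 3.71. Ccl2 in HCN 24 h replicate 2 was the highest of its group, at 5.44. Cxcl2 in saline 24 h replicate 2 was the lowest of its group, at 2.48, below background.

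The HCN change exceeded the KCN change by a tested difference for Cxcl1 at 1 h (3.18), Cxcl2 at 1 h (2.75), Cxcl1 at 2 h (2.28), Ccl2 at 4 h (1.86) and Ccl7 at 4 h (1.81), all on the log2 scale. The HCN change also differed between the 4 times, with F of 36.2 for Cxcl1, 59.3 for Cxcl2, 5.12 for Ccl2 and 6.88 for Ccl7.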

How the results depend on the processing

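Of 36 results for a single gene against its control, 12 were called, and over 12 alternatives 120 of 128 repeats of these kept the call. The 8 lost were Ccl2 at HCN 1 h with quantile normalization (1.12, adjusted p = 0.0678), an offset of 16 (0.71, adjusted p = 0.0755) and a separate fit per route (1.23, adjusted p = 0.0706), Ccl7 at HCN 2 h with a separate fit (0.79, adjusted p = 0.0729) and with adjustment over all 9 comparisons (adjusted p = 0.075), and Cxcl2 at HCN 2 h with the offset (0.21, adjusted p = 0.0837) and in both fits that address the actin ratio. Leaving out 1 array kept 83 of 96 calls and added 2. Among the HCN results, Cxcl1 at 1, 2 and 4 h, Cxcl2 and Ccl7 at 1 h, and Ccl2 and Ccl7 at 4 h were called in every alternative that tested them and without any single array. Only Cxcl1 passed a stricter filter (the 75th percentile of group means), so the counts of called genes became 1 at HCN 1 h, 1 at HCN 2 h, 1 at HCN 4 h, 1 for the route difference at 1 h, 0 for that at 4 h, 1 for the HCN effect over time and 1 for the KCN effect over time. The KCN effect over time also gave 1 (Cxcl1) with quantile normalization, the actin ratio or the airway level. Saline controls over time gave 1 (Ccl2) with quantile normalization, the airway level or a separate fit. The route difference gave 2 (Cxcl1 and Ccl2) at 2 h with the actin ratio, and at 4 h 1 (Ccl7) with no filter and 0 with the airway level. The cause of these shifts was not tested, other than for the stricter filter. Without 1 array the counts ran over 3 to 4 at HCN 1 h, 2 to 4 at HCN 2 h, 3 to 3 at HCN 4 h, 0 to 0 at HCN 24 h, 0 to 2 at KCN 1 h and 0 to 0 at the other KCN times. For the route difference they were 2 to 2, 1 to 1, 0 to 2 and 0 to 0 at 1, 2, 4 and 24 h. Over time they were 4 to 4 for the HCN effect, 0 to 1 for the KCN effect, 0 to 1 for saline and 0 to 0 for air. The KCN effect over time reached 1 (Cxcl1) without KCN 1 h replicate 1 or 4, KCN 2 h replicate 2 or 3, saline 1 h replicate 2, saline 4 h replicate 3 or saline 8 h replicate 2, and the saline controls reached 1 (Ccl2) without saline 8 h replicate 2.

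Of the differences of the HCN change between times, the 24 h minus 4 h calls of Ccl2 and Ccl7 were lost with the actin ratio (-0.90 and -1.27). Leaving out 1 array lost that of Cxcl1 without HCN 4 h replicate 2 (-1.27) and added the 4 h minus 2 h call of Ccl7 without HCN 4 h replicate 3 (1.27, adjusted p = 0.0457).

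Replicate numbers did not pair the arrays: of 34 same-numbered pairs, 9 deviated together with a correlation over 0.1 (range -0.142 to 0.318). With the replicate number as a block the count of called chemokine genes stayed 4 at HCN 1 h, 4 at HCN 2 h, 3 at HCN 4 h and 1 at KCN 1 h, and over all probe sets it was 729 against 718 at HCN 1 h. Signals near background limit Cxcl2 most.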
